A study of Homo sapiens with 9 samples.

Results

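The regions described here are the places where the DNA copied at the start of S phase stood out from its surroundings in HCT116 cells, in RPE1 cells or in both. Nascent DNA of each line had been divided into 3 S phase libraries, and the measure was the share of a 20 kb window's reads that fell in the library taken, by sample order alone, as early S. A peak was a local maximum of that share, smoothed over 100 kb, that stood at least 8 percentage points above the dips beside it. No minimum share was required, so some peaks lay in DNA with a low share. Over 133903 of 144040 windows of chromosomes 1 to 22, HCT116 had 1347 peaks, against 2101 and 1912 in the 2 sets of RPE1. Under the thresholds given below, 534 peaks were shared by both lines, 160 were found in HCT116 and not in RPE1, and 575 were found in RPE1 and not in HCT116.

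DNA replication starts at many sites spread along each chromosome, and the sites fire at different times. Gene-rich, transcribed chromatin is usually copied early in S phase, and gene-poor, compact chromatin late. Where replication starts early in many cells of a population, a profile of early nascent DNA forms a peak, often called an initiation zone, and the share falls away on both sides as forks move outwards. Part of the programme is common to most cell types, and part is specific to the cell type, in stretches many genes long.

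HCT116, a human colorectal carcinoma line, was profiled in 1 set of 3 libraries, and RPE1, a telomerase-immortalised line from the human retinal pigment epithelium, in 2 sets of 3. Both lines grew unsynchronised in the same medium with no other treatment given in the labels, were pulsed with EdU, a thymidine analogue that marks newly made DNA, and were sorted by S phase fraction before the marked DNA was pulled down with streptavidin and sequenced. Each line stands for 1 established culture line and not for a tissue, and the labels do not state that separate RPE1 cultures were used for the sets, so the difference between them may be technical. The HCT116 mid and late S libraries carry replicate number 2 in the labels and the early S library carries none, and a second HCT116 set was not used here. Whether the early S library came from the same sort as the other two is not stated, and every HCT116 share below divides 1 library by the sum of all 3.

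The deposited tables name no fraction for their 3 count columns. The first count column, here library A, was taken as early S from the order of the samples alone, and the other two are called libraries B and C. As a check that did not use the peaks, the mean library A share of each of the 22 autosomes was set beside its density of protein-coding genes. Spearman's rho across the chromosomes was 0.89 in HCT116, against 0.88 and 0.89 in RPE1 sets 1 and 2, and for library C it was -0.85 in HCT116, against -0.84 and -0.80 in RPE1. Gene-rich chromosomes therefore had more of their reads in library A and fewer in library C in each set, which is the order that early replication of gene-rich DNA gives. It does not assign library A to a sorted fraction, and every use of early below rests on that inference.

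Library A held 8186243 autosomal reads in HCT116, against 13104971 and 21857175 in RPE1, and a median kept window had 51 of them in HCT116, against 69 and 123. To remove copy number, library A reads were divided by the sum of the 3 libraries of the same set after each was scaled to a common total. A share is an average over sorted cells, so that a region copied early in some cells and late in others cannot be told apart from one copied at an intermediate time in all of them.

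The share profile of HCT116 followed that of RPE1 over most of the genome, with a narrower range. Over the kept windows the smoothed share of HCT116 correlated with that of RPE1 at r = 0.849 for set 1 and 0.842 for set 2, and the RPE1 sets correlated with each other at 0.991. These are descriptions across neighbouring windows, which are not independent. The differences between lines had an SD of 10.0 and 10.2 percentage points, against 2.59 points between the RPE1 sets. From the 1st to the 99th percentile of windows the share spanned 14.5 to 62.5% in HCT116, against 11.3 to 71.8% and 11.1 to 70.7% in the RPE1 sets. The most and the least early windows of HCT116 were thus less far apart than those of RPE1, and a rule in percentage points treats the lines unequally for that reason.

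Peaks stood less far above their surroundings in HCT116, and under the main setting they were also fewer and wider. The median peak reached a library A share of 53.8% in HCT116, against 56.9 and 57.8% in RPE1. The median prominence, which is the height above the dips beside the peak, was 14.4 points in HCT116, against 19.8 and 21.6 points. The median peak was 433 kb wide in HCT116, measured midway up its prominence, against 312 and 328 kb, and neighbouring summits lay 1620 kb apart, against 980 and 1060 kb. The summits therefore covered less of the HCT116 genome, with 11.0% of kept windows within 100 kb of a summit, against 17.2 and 15.7%. The prominence was lower in HCT116 in each of the 17 settings tried, but the order of the counts and widths was not fixed. Some of these settings changed only how summits were matched or classed, which leaves the peaks of each set and their prominence as they were. With a running mean of 3 windows there were 2408 peaks in HCT116, against 2925 and 2381, and their median width was 159 kb, against 202 and 253 kb. At a prominence of 5 points there were 2612, against 3044 and 2626, with widths of 201 kb, against 220 and 252 kb. With quantile-matched shares there were 1742, against 1980 and 1867, with widths of 308 kb, against 330 and 342 kb. With libraries A and C alone there were 1987, against 2118 and 2126, with widths of 257 kb, against 315 and 325 kb.

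The rest of the reads at these summits differed between the RPE1 sets as much as between the lines. At the median summit library B held 29.5% and library C 15.6% in HCT116. In RPE1 set 1 the corresponding shares were 35.4 and 4.58%, and in RPE1 set 2 they were 26.0 and 16.7%. Library C of RPE1 set 1 was thus nearly empty at the median summit, which was not so in HCT116 and RPE1 set 2. That difference bears on every value computed from libraries A and C alone.

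How well a peak chosen in 1 set was found again in a set that had no part in choosing it was the measure of agreement between the lines. Of the 2101 peaks of RPE1 set 1, 617 had an HCT116 summit within 100 kb, or 29.4% (95% Wilson interval 27.5 to 31.4%), whereas 1618 had one in RPE1 set 2, or 77.0% (75.2 to 78.8%). Of the 1912 peaks of RPE1 set 2, 32.3% had a summit in HCT116 and 84.6% in RPE1 set 1. The intervals cover counting error only, and neighbouring peaks are not independent. Recovery in HCT116 was above the 11.0% of windows that lie within 100 kb of an HCT116 summit, and below the recovery between the RPE1 sets. The windows are not matched to the peaks in share. The median summit had 53.8% in HCT116, against 56.9 and 57.8% in RPE1, where the median window had 29.8%, against 27.3 and 25.7%. Agreement in position was not tested apart from this difference.

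Looked up the other way, 617 of 1347 HCT116 peaks, or 45.8%, had a summit in RPE1 set 1 and 618, or 45.9%, in RPE1 set 2. Within 100 kb of a summit lay 17.2 and 15.7% of windows in RPE1 sets 1 and 2, against 11.0% in HCT116. The directions of the lookup therefore differ in background. At the HCT116 summits the median RPE1 share was 53.2% in both sets, close to the 53.8% of HCT116 itself. At RPE1 set 1 summits the median share was 44.1% in HCT116 and 55.2% in RPE1 set 2, where set 1 itself had 56.9%. On the median, then, HCT116 peaks lay in DNA with about as high a share in RPE1, although the summits often did not match.

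RPE1 peaks of low prominence were found again less often than high ones, also within RPE1. When RPE1 set 1 peaks were ordered by prominence and cut into 4 groups of about the same size, the group with the smallest prominence spanned 8.02 to 11.8 points. Of these peaks 15.8% had an HCT116 summit and 46.0% a summit in RPE1 set 2. In the group with the largest, of 36.7 to 69.5 points, these were 43.8 and 88.2%. For HCT116 peaks, in the same 4 groups from low to high prominence, 36.8, 46.0, 55.7 and 44.8% were found in RPE1 set 1 and 34.1, 49.6, 54.5 and 45.4% in set 2, so that recovery was highest in the third group and not in the fourth. Most of the lowest RPE1 group had no match even in the same line, so single low peaks carry little weight. The shared regions named first have the largest prominence, but those found in 1 line were ranked by difference alone, and some were low. Prominence was 11.1 and 10.1 points in HCT116 at chr4:11280001-11380000 and chr7:27100001-27200000, and 11.0 points in RPE1 set 1 at chr8:118600001-118700000. The other regions ranked by difference had at least 18.5 points in the set that placed the summit.

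A missing summit is not the same as a missing early signal, and so a difference in share was required before a peak was counted as found in 1 line. Of the 2101 peaks of RPE1 set 1, 867, or 41.3%, had no summit in HCT116 and a share there at least 10 points lower. The same rule applied between the RPE1 sets gave 7 of 2101 peaks, or 0.333%, for set 1 peaks looked up in set 2, and 0 of 1912 for set 2 peaks looked up in set 1, which allows a share of up to 0.157%. HCT116 peaks missing from RPE1 by this rule numbered 186 against set 1 and 205 against set 2. Differences of this size were common between the lines and rare between the RPE1 sets.

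The classes used below needed both RPE1 sets. Of the 1618 peaks that the RPE1 sets had in common, 534, or 33.0%, had an HCT116 summit and are the shared peaks. A further 575, or 35.5%, had none and an HCT116 share at least 10 points below both RPE1 sets, and are called RPE1-only. The remaining 509, or 31.5%, had no HCT116 summit and a smaller difference. Of the 1347 HCT116 peaks, 727, or 54.0%, had a summit in 1 or both RPE1 sets. Within 100 kb of a summit lay 17.2% of windows in set 1 and 15.7% in set 2, each taken alone. Another 160 peaks, or 11.9%, had no RPE1 summit and a share at least 10 points above both sets and are called HCT116-only. The remaining 460 had no RPE1 summit and a smaller difference. These names describe summits under the thresholds. The shares chose the peaks, so the shares at them are a description and no test is attached.

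That RPE1-only peaks outnumbered HCT116-only peaks held in 17 of 17 settings tried, but the size of the imbalance depended on the scale. HCT116-only peaks were 21.8% of the peaks found in 1 line as measured. When each set was given the same distribution of shares, a setting chosen after seeing the data, there were 331 HCT116-only and 445 RPE1-only peaks, so that HCT116-only peaks made up 42.7%. With the sum of libraries A and C as the denominator there were 266 and 346, or 43.5%. Equal distributions thus brought the counts closer and left RPE1-only peaks the more numerous.

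Shared peaks were the library A peaks that both lines placed within 100 kb of each other. Not all of them were early, since no minimum share was required. The lowest share at these summits was 21.0% in HCT116, against 20.7 and 19.5% in RPE1. The medians of all windows were 29.8% in HCT116, against 27.3 and 25.7%. At their own summits the median share was 49.3% in HCT116, against 58.5% in each RPE1 set, and the median difference from RPE1 was -8.07 points. HCT116 was below both RPE1 sets at 418 of 534 shared peaks and above both at 78. Their median prominence was 15.996 points in HCT116, against 30.7 and 30.9 points, and their median width was 456 kb in HCT116, against 378 and 374 kb. A shared peak was thus typically lower in HCT116. Its width is given for the main setting only, and the order of the widths of all peaks changed with the setting, as above.

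Position was less exact between lines than within RPE1. The HCT116 summit lay a median of 40 kb from the RPE1 set 1 summit, and within 20 kb of it at 226 of 534 shared peaks, or 42.3%. The summits of the RPE1 sets lay a median of 20 kb apart, and within 20 kb at 363, or 68.0%. With a window of 20 kb these medians are 2 windows and 1 window. The matching kept every distance within 100 kb. A median window held 51 library A reads in HCT116, against 69 and 123 in RPE1, and shared peaks had a lower median prominence in HCT116. The part of either in the distances was not tested.

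**Figure D1:**
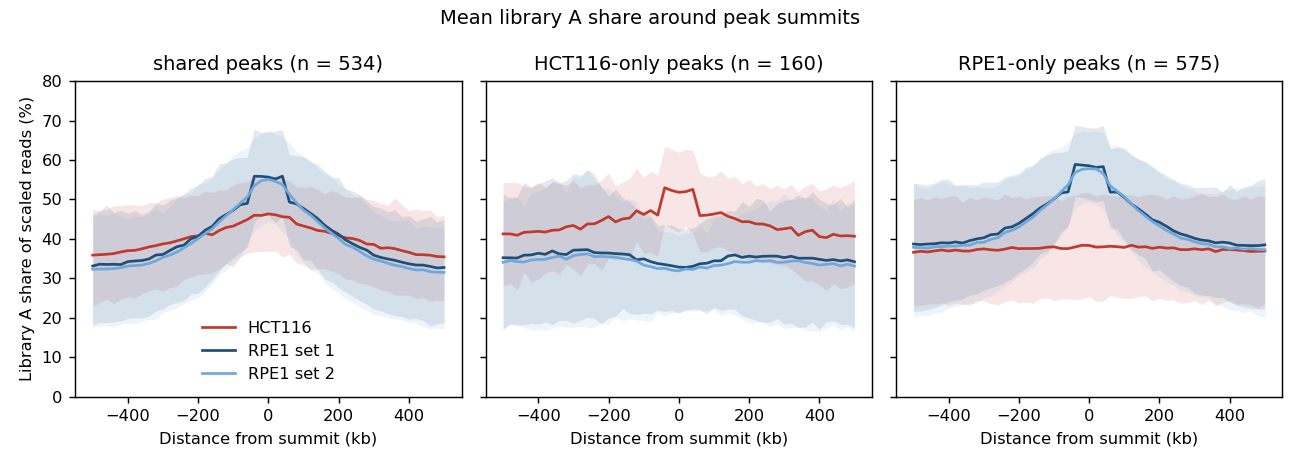
Mean library A share (%, y axis, unsmoothed 20 kb windows) against distance from the summit (kb, x axis) for shared, HCT116-only and RPE1-only peaks; lines are means over peaks, shaded bands the middle 50% of peaks, with HCT116 in red and the RPE1 sets in blue. At RPE1-only summits the HCT116 line is flat, at 38.3% at the summit and 36.9% at 500 kb, while at shared summits it forms a low, broad peak. The classes were sorted by whether HCT116 had a summit there.

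Averaged over the peaks, HCT116 formed a broad rise at shared summits and none at RPE1-only summits. At shared peaks the mean share was 46.3% at the summit and 35.5% at a distance of 500 kb in HCT116, against 55.7 and 32.8% in RPE1 set 1 and 55.1 and 31.5% in set 2. At RPE1-only peaks HCT116 had 38.3% at the summit and 36.9% at 500 kb, against 58.5 and 38.5% in set 1 and 57.8 and 37.2% in set 2. The HCT116 mean was thus nearly flat where both RPE1 means formed a peak. The classes were sorted by whether HCT116 had a summit within 100 kb, so this contrast follows in part from the rule.

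At HCT116-only peaks HCT116 had 51.8% at the summit and 40.7% at 500 kb, against 32.9 and 34.2% in RPE1 set 1 and 31.9 and 33.1% in set 2. In the set that placed the summit the mean stepped at the edge of the 100 kb running mean. For HCT116-only peaks it was 52.6% at 40 kb and 45.9% at 60 kb in HCT116, and at RPE1-only peaks it was 58.3 and 51.9% in RPE1 set 1. RPE1 set 2, which did not fix the position of the RPE1-only summits, had 56.6 and 53.4% there. Outside the smoothed windows, at 60 kb, HCT116 still had 45.9%, against 33.7 and 32.9% in RPE1, at HCT116-only peaks, and 38.1%, against 51.9 and 53.4%, at RPE1-only peaks. These values are not free of the selection. Neighbouring windows are not independent, and the rule required that the other line had no summit within 100 kb.

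The shared peaks that stood out most in all 3 sets lay on chromosomes 2, 7, 14, 16 and 20. The first was chr2:28580001-28680000 (hg19), with a share of 65.5% in HCT116, against 73.1 and 72.9% in RPE1 sets 1 and 2. It rested on 445 of 727 reads in HCT116, against 907 of 1079 and 1456 of 1827, before scaling. The second, chr20:48800001-48900000, had 62.2% in HCT116, against 73.9 and 70.9%. In both regions HCT116 was the lowest set and library A still held most of its scaled reads.

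The peak at chr14:55180001-55280000 was the most alike of the 8 between lines, with 66.6% in HCT116, against 68.8 and 69.0%. The HCT116 summit was in the same 20 kb window as that of RPE1 set 1. The peak at chr7:44240001-44340000 was the least alike, with 58.6% in HCT116, against 73.9 and 75.6%. The other 4 were chr16:70720001-70820000, chr2:220320001-220420000, chr20:17540001-17640000 and chr2:55160001-55260000, with 56.6 to 64.8% in HCT116, against 68.1 to 76.7% in RPE1. HCT116 was below both RPE1 sets in all 8 of these regions, by 2.16 to 15.3 points from the nearer set, and no gene is named, since an hg19 annotation was not used here.

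HCT116-only peaks lay where the library A share of RPE1 was only moderately above the genome median. Their median share was 57.0% in HCT116, against 34.2 and 33.9% in RPE1, where the median of all windows was 29.8% in HCT116, against 27.3 and 25.7%. Against windows 320 to 500 kb away the HCT116 summit was higher by a median of 10.2 points, while the same difference was -1.49 and -1.06 points in RPE1. The RPE1 profile thus had a slight dip, on the median, where HCT116 had its summit. The class required no RPE1 summit within 100 kb and a lower RPE1 share, so such a dip is in part built into the rule.

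**Figure D2:**
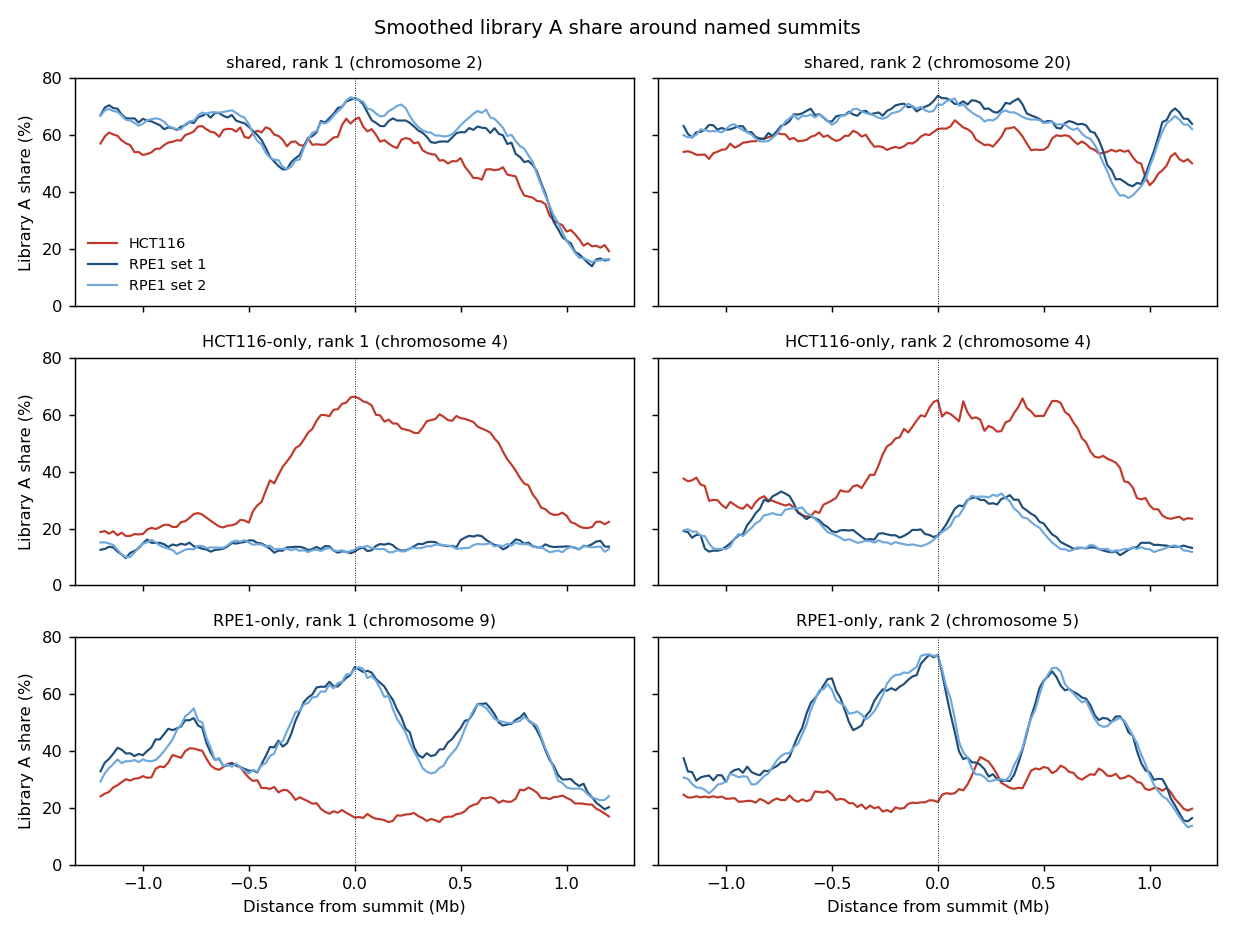
Smoothed library A share (%, y axis) against distance from the summit (Mb, x axis) around the first and second named region of each class; HCT116 in red, RPE1 sets in blue. In the first HCT116-only region HCT116 reaches 66.4% while the RPE1 sets are at 11.9 and 12.5%, and in the first RPE1-only region the RPE1 sets reach 69.5 and 68.8% while HCT116 is at 16.6%.

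The HCT116-only peak with the widest gap was chr4:30580001-30680000. Library A held 66.4% in HCT116 (95% Wilson interval 62.7 to 69.7% from its reads), against 11.9% (10.4 to 13.8%) and 12.5% (11.1 to 14.2%) in RPE1. In RPE1 the reads of that region lay in library C, with 71.4 and 64.0%, against 15.2% in HCT116. The region was thus led by library A in HCT116 and by library C in both RPE1 sets.

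The same kind of contrast was seen on chromosomes 1, 4 and 7. The region chr4:11280001-11380000 had 65.1% in HCT116, against 17.6 and 17.5% in RPE1, and chr1:66460001-66560000 had 64.8%, against 17.5 and 16.7%. In these regions RPE1 divided its remaining reads between libraries B and C, with 38.3 and 46.1% in library B at the chromosome 4 region. The region chr7:27100001-27200000 had 56.1% in HCT116, against 20.1 and 18.5%, with 54.8 and 44.9% of RPE1 reads in library C.

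A further 4 regions lay on chromosome 8. The region chr8:128000001-128100000 had 64.4% in HCT116, against 17.9 and 18.1% in RPE1. The region chr8:126760001-126860000 had 64.9%, against 24.8 and 25.7%, and chr8:94560001-94660000 had 66.0%, against 27.7 and 29.4%. In these 3 the summed depth of HCT116 was 1.23, 1.26 and 1.37 times that of RPE1, beside a chromosome 8 median of 1.24. The fourth, chr8:17700001-17800000, had 61.3%, against 26.0 and 23.5%, at a depth ratio of 0.846, so that raised depth did not accompany all of them. The part of copy number in these shares was not tested beyond dividing by the summed reads.

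The remaining HCT116-only regions by this rule were chr4:187500001-187600000 and chr5:115200001-115300000. The first had 62.0% in HCT116, against 22.4 and 19.5% in RPE1, and the second 62.6%, against 25.7 and 26.7%. In RPE1 library B led both, with 45.3 and 48.9% in the first and 50.6 and 49.8% in the second. Most of the 10 regions were thus led in RPE1 by library B in at least 1 set, and chr4:30580001-30680000 and chr7:27100001-27200000 by library C in both sets. In each of the 10 the HCT116 share was above both RPE1 shares by at least 35.4 points, while the RPE1 sets differed by at most 2.90 points.

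RPE1-only peaks were high in RPE1 and ordinary in HCT116. Their median share was 37.5% in HCT116, against 61.0 and 60.7% in RPE1, and the HCT116 median was above the 29.8% of all windows. Against windows 320 to 500 kb away the HCT116 summit was higher by a median of 0.964 points, against 19.2 and 18.4 points in RPE1. These regions were therefore not late in HCT116 as a class, but by the rule HCT116 had no peak at them.

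The RPE1-only peak with the widest gap was chr9:16240001-16340000, with 16.6% in HCT116 (95% Wilson interval 14.2 to 19.4%), against 69.5% (66.1 to 73.2%) and 68.8% (66.3 to 71.2%) in RPE1. HCT116 had 48.2% of the reads there in library C, against 4.10 and 10.8%. A second region of the same arm, chr9:18400001-18500000, had 17.5% in HCT116, against 62.3 and 67.0%, with 52.6% of HCT116 reads in library C. Library C thus led both regions in HCT116 and library A in RPE1, and they belong to a run of 3 such peaks from position 16280001 to 18460000, over which the mean share was 18.7% in HCT116, against 37.8 and 37.0%.

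Chromosome 5 held a pair of the named regions. The region chr5:33960001-34060000 had 22.04% in HCT116, against 73.9 and 73.7% in RPE1, and chr5:146880001-146980000 had 19.7%, against 61.8 and 62.2%. At the first of them library B led in HCT116, with 46.5%, and at the second library C, with 43.2%. The RPE1 sets differed by less than 1 point in both.

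The strongest shift to library C was at chr6:72180001-72280000, where HCT116 had 19.9% in library A and 60.5% in library C, against 64.6 and 69.3% in library A and 3.41 and 14.9% in library C in RPE1. At chr8:13120001-13220000 HCT116 had 21.2% in library A and 52.5% in library C, against 65.2 and 66.1% in library A in RPE1. At chr1:210420001-210520000 HCT116 had 25.4% in library A and 57.4% in library B, against 68.1 and 68.6% in library A. The HCT116 reads of these early RPE1 peaks were thus displaced to library C in some regions and to library B in others.

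The last of the 10 were chr8:118600001-118700000, chr2:75760001-75860000 and chr1:98340001-98440000, with 17.5, 24.3 and 21.5% in HCT116. In RPE1 they had 62.3 and 63.9%, 68.6 and 68.5%, and 65.0 and 65.0%. HCT116 lay below both RPE1 sets by at least 42.1 points in all 10 regions. The summed depth of HCT116 relative to RPE1 in the 10 ranged from 0.987 to 1.55, the highest at the chromosome 8 region.

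All 10 HCT116-only and all 10 RPE1-only regions kept a gap of at least 10 points at the same position after thinning every library to the smallest one, under quantile-matched shares, under running means of 3 and of 9 windows, and with libraries A and C alone as the denominator. Over those 5 settings the smallest gap was 18.7 points for the HCT116-only and 23.2 points for the RPE1-only regions. These regions were picked for wide gaps, of at least 35.4 and 42.1 points, so that passing a limit of 10 points says little. When the peaks were called anew, 2 of the 10 HCT116-only and 2 of the 10 RPE1-only regions kept a summit of their class within 100 kb in all 14 settings compared. The classes as a whole also varied. With libraries A and C alone, HCT116 stayed above both RPE1 sets at 90 of 160 HCT116-only summits and below both at 565 of 575 RPE1-only summits, and by at least 10 points at 74 and 263.

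**Figure D3:**
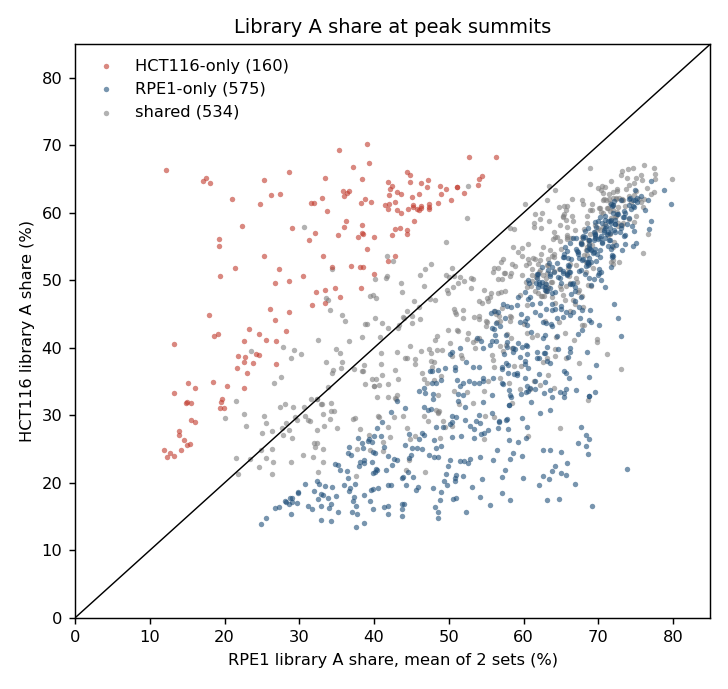
Smoothed library A share at the summit in HCT116 (%, y axis) against the mean of the RPE1 sets (%, x axis) for 160 HCT116-only, 575 RPE1-only and 534 shared peaks; each point is a peak and the line marks equal shares. Most shared peaks lie below the line, 418 of them with HCT116 under both RPE1 sets at their own summits, and the RPE1-only peaks run alongside them.

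The line between classes was a threshold in a continuous spread of values. The HCT116-only peak nearest to the limit, chr7:152280001-152380000, had 48.8% in HCT116, against 38.7 and 37.7% in RPE1, and the nearest HCT116 peak outside, chr2:202180001-202280000, had 61.3%, against 48.1 and 51.3%. The RPE1-only peak nearest to the limit, chr1:167760001-167860000, had 50.1% in HCT116, against 61.0 and 60.1%, and the nearest outside, chr11:102900001-103000000, had 30.7%, against 40.7 and 43.6%. The next on each side, chr2:26780001-26880000 inside and chr19:16900001-17000000 outside for HCT116, had gaps of 10.2 and 9.88 points. For RPE1, chr20:18400001-18500000 inside and chr8:37880001-37980000 outside had gaps of 10.0 and 9.98 points. The gaps on both sides of the limits are alike because these peaks were picked as nearest to it, while the shares themselves differed.

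The library with the most reads at a summit differed between the classes, in part because the library A share at these summits chose the classes. At HCT116-only summits library A led in 75.6% of cases in HCT116, against 11.9 and 26.9% in RPE1, where library B led in 58.1 and 51.9% and library C in 30.0 and 21.2%. At RPE1-only summits library A led in 42.4%, library B in 41.6% and library C at 92 of 575 in HCT116, whereas library A led in 81.6 and 85.2% in RPE1. At shared summits library A led in 62.2% in HCT116, against 75.8 and 80.0%. Over all windows library A led in 33.5% in HCT116, against 28.2 and 32.4% in RPE1. At HCT116-only summits the RPE1 values thus lay below the genome-wide ones, by little in set 2, and at RPE1-only summits the HCT116 value lay above it, with no summit there.

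**Figure D4:**
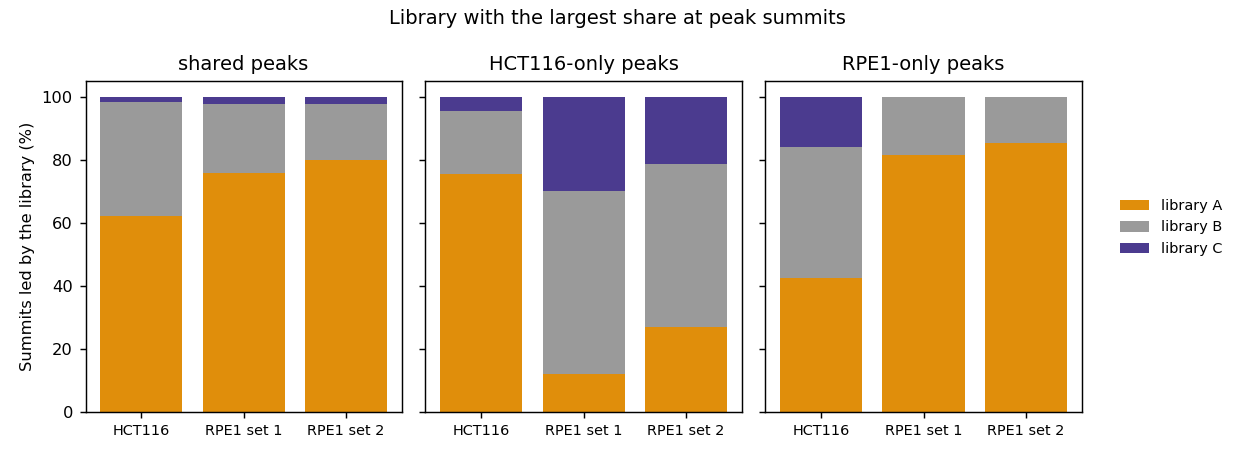
Percent of summits (y axis) at which library A, B or C held the largest scaled share, in HCT116 and RPE1 sets 1 and 2 (bars), for shared, HCT116-only and RPE1-only peaks. Library A leads at 75.6% of HCT116-only summits in HCT116, against 11.9 and 26.9% in RPE1. The classes were chosen on the library A share at these summits.

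How the peak regions stood among all windows was seen from a test of each 20 kb window. Library A counts were compared with edgeR's quasi-likelihood test, the log of the scaled sum of the 3 libraries as offset, and a call needed a Benjamini-Hochberg adjusted p below 0.05 and a difference of at least 5 points. With 1 residual degree of freedom, the lone HCT116 library was assumed to vary like the RPE1 pair. Library A was higher in HCT116 in 16988 of 133903 windows, or 12.7%, and lower in 9494, or 7.09%. With TMM normalization these were 14351 and 12718 windows, so that 53.0% of calls were higher with TMM and 64.1% without it. The median log2 change of all windows was 0.12 without and 0.06 with TMM. DESeq2 called 416 windows higher and 374 lower, so the number of calls depended on the tool.

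Against these backgrounds, 92 of the 159 HCT116-only summit windows tested were called higher in HCT116 and 0 lower, and 343 of 575 RPE1-only summit windows were called lower and 0 higher. The peaks were chosen on the same shares, so nothing is read from these counts beyond how the classes overlap with the calls. Of 534 shared summit windows 4 were called higher and 110 lower in HCT116. At an unadjusted p below 0.05, 45139 windows differed genome-wide.

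The fraction of RPE1 peaks that were RPE1-only is given by height as a description, since the bands and the class use the same RPE1 share. A gap of 10 points below a low share would need an HCT116 share near its floor, whose 10th percentile was 17.2%, so an increase with height is in part built into the rule. Among peaks with a share of 60% or more in RPE1 set 2, 306 of 670, or 45.7%, were RPE1-only and 34.8% were shared. Between 45 and 60% these were 35.0 and 33.0%, between 30 and 45% they were 29.0 and 33.8%, and below 30% they were 9.94 and 24.6%. The rest, 65.5% of peaks below 30% and 19.6% of peaks of 60% or more, had no HCT116 summit and a difference under 10 points. The size of the difference also varied with height, with a median share of 54.6% in HCT116, against 67.7 and 66.6% in RPE1, in the highest band, and of 23.3%, against 28.2 and 25.9%, in the lowest. The fraction of shared peaks varied little above 30%. For HCT116 peaks the HCT116-only fraction was 15.7% at 60% or more and between 8.76 and 10.9% below.

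Both classes were spread over all autosomes. HCT116-only peaks made up between 6.67% of the peaks found in 1 line on chromosome 22, with 1 against 14 RPE1-only, and 40.0% on chromosome 12, with 12 against 18. Chromosomes 13, 17 and 6 followed with 34.8, 31.2 and 31.0%. The highest density of RPE1-only peaks was on chromosome 22, at 4.02 per 10 Mb, and the highest density of shared peaks on chromosome 20, at 2.86 per 10 Mb. RPE1-only peaks outnumbered HCT116-only peaks on each of the 22 autosomes, and the counts per chromosome are too small for an order among them.

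**Figure D5:**
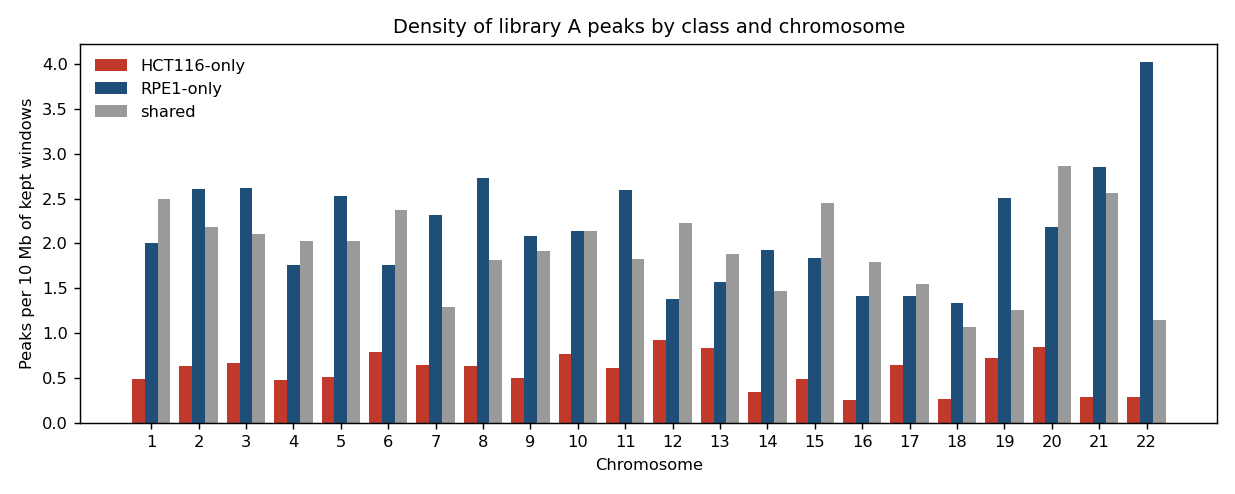
Peaks per 10 Mb of kept windows (y axis) on chromosomes 1 to 22 (x axis) for HCT116-only (red), RPE1-only (blue) and shared (grey) peaks; each bar is a count divided by length, with no error since there is 1 HCT116 set. The RPE1-only bar is above the HCT116-only bar on every autosome, most of all on chromosome 22, at 4.02 against 0.287 per 10 Mb.

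Distance from chromosome ends, which the rule did not use, and read depth differed little between the classes. The summed reads are the denominator of the share that set the classes, so depth is not independent of them. Within 5 Mb of a chromosome end lay 17 of 160 HCT116-only peaks, or 10.6%, 51 of 575 RPE1-only peaks, or 8.87%, and 33 of 534 shared peaks, or 6.18%, beside 7.11% of all windows. The summed depth of HCT116 relative to RPE1 had a median of 0.915 at HCT116-only, 0.996 at RPE1-only and 0.966 at shared summits, against 0.984 over all windows. HCT116-only peaks were thus at slightly lower HCT116 depth than the rest, and the part of depth in the result was not tested.

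Some RPE1-only peaks lay side by side. Runs of at least 3 RPE1-only summits with no more than 2 Mb between neighbours numbered 39 and held 131 of 575 peaks. A class with more peaks forms more runs by number alone, and there were only 160 HCT116-only peaks. Runs of shared peaks or of all RPE1 peaks were not counted, so whether RPE1-only peaks lay closer together than others was not tested. The longest was chr8:117640001-123160000, with 8 summits over 5.52 Mb and a mean share of 23.5% in HCT116, against 33.9 and 34.0% in RPE1. At its 8 summits HCT116 had between 15.4 and 26.5%, against 31.6 to 63.9% in set 1 and 30.0 to 66.2% in set 2. The rule required HCT116 to be at least 10 points lower at each summit, so these ranges are a description. The depth of HCT116 over the run was 1.52 times that of RPE1, and its part in the result was not tested.

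The next runs lay where depth was near equal. The run chr2:37880001-42380000 held 6 summits at a depth ratio of 1.03, with a mean share of 32.6% in HCT116, against 37.2 and 37.5%. The run chr3:156840001-160200000 held 5 at a depth ratio of 1.02, with 32.5% in HCT116, against 42.3 and 41.8%. HCT116-only peaks formed 1 run, chr10:132060001-134540000, with 3 summits, a mean share of 33.5% in HCT116, against 28.6 and 26.0%, and a depth ratio of 0.348. Runs of RPE1-only summits were thus found on many chromosomes, and the single HCT116 run lay in DNA with few HCT116 reads. Over most RPE1-only runs the HCT116 mean was below both RPE1 sets, but not over all. Over chr1:36820001-39460000 it was 46.8%, against 43.9 and 41.8% in RPE1, and over chr10:60600001-63880000 it was 29.2%, against 29.0 and 29.1%. A run is therefore a row of summits and need not be less early in HCT116 throughout.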

How the data were processed

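Nascent DNA of 9 libraries was sequenced as single-end reads of 50 bases, per the labels' protocols. Each of the 3 deposited tables gives read counts, as whole numbers, for 1 kb bins and has no header line. The build was hg19 and the tools named were bedtools 2.25, SAMtools 1.2 and Bowtie2, per the submitters' processing notes. The labels leave unsaid which step each tool did. The names that the labels give the tables imply that duplicates were removed, and the counts were deposited unscaled. Reads that map to several places and copy number change a bin's count, and dividing by the summed reads of the set lessens the effect of copy number.

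Counts were summed to 20 kb windows of chromosomes 1 to 22. A window was kept with a read in at least 15 of its bins and at least 60 reads in each set. Each column was scaled to a common total, and the share of the first count column (column 4 of each table) was smoothed over 5 windows. Peaks needed a prominence of 8 percentage points, and stretches of kept windows shorter than 500 kb carried none. Summits matched within 100 kb, and peaks found in 1 line needed a difference of 10 points from both RPE1 sets. Named regions are the 8 shared peaks with the largest lowest prominence over the 3 sets, the 10 HCT116-only and the 10 RPE1-only peaks with the largest gap to the nearer RPE1 set, and the nearest 2 on each side of each threshold. Shares are means of 5 window shares, and Wilson intervals come from the read counts of those windows, converted to the scaled share, and cover counting error only. Window counts were tested with edgeR 4.0.16 (quasi-likelihood, no TMM, scaled sum as offset), with TMM and DESeq2 1.42.0 as alternatives, in R 4.3.3. Peaks were called with SciPy 1.17.1. The peak caller and the edgeR script were checked on simulated data. Chromosome gene counts came from RefSeq's annotation (GRCh38.p14), without its coordinates, and chromosome lengths from the tables.

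Regions, classes and tests were chosen with earlier results of these data known. Because the columns name no fraction, each was tied to its set and not to a sample, and library A was used by position. Gene lists and promoter sequences were not analysed here, as no annotation of hg19 was used.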

Additional observations from a re-analysis of the deposited data

Results flagged for a closer look

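Chromosome X, which lies outside the windows compared above, also had library A peaks. HCT116 had 109 of them, against 77 in RPE1 set 1 and 62 in RPE1 set 2, over 7405 kept windows. Per 10 Mb these were 7.36 in HCT116, against 5.20 and 4.19 in RPE1, whereas on the autosomes HCT116 had 5.03, against 7.85 and 7.14. The mean share of library A on the chromosome was 29.3% in HCT116, against 21.4 and 20.1%. The median peak rose 10.8 points above its surroundings in HCT116, against 16.5 and 18.3 points, and a median window held 26 library A reads in HCT116, against 53 and 70. The difference between the lines on chromosome X was not tested.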

How the results depend on the processing

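Of 87 alternative values, 53 were labelled as the same and 34 as moved, and HCT116-only peaks were fewer than RPE1-only peaks in each of the 17 settings. For counts the label of the same was wide. Beside 160 HCT116-only peaks, 108 with a running mean of 9 windows and 205 without RPE1 set 1 were labelled the same. A count of 103 with 50 kb windows was labelled as moved. Percentages were judged more narrowly, since a recovery in RPE1 set 2 of 79.1%, beside 77.0%, was labelled as moved. Where a value moved, the cause was not tested beyond what the setting itself changes. The 160 HCT116-only peaks became 103 with 50 kb windows, 353 with a running mean of 3 windows, 266 at a prominence of 5 points, 103 with matches within 200 kb, 266 with columns 4 and 6 as denominator, 280 and 89 with a difference of 5 and 15 points, and 331 with quantile-matched shares. The 575 RPE1-only peaks became 346 with columns 4 and 6 and 318 with a difference of 15 points. The 534 shared peaks became 858 with a running mean of 3 windows, 948 and 309 at a prominence of 5 and 12 points, and 808 with matches within 200 kb. Leaving out 1 RPE1 set gave 752 to 867 RPE1-only peaks. Recovery of RPE1 set 1 peaks in HCT116, 29.4%, was 37.3% with a running mean of 3 windows, 38.3 and 22.7% at a prominence of 5 and 12 points, 22.1 and 42.7% within 60 and 200 kb, 35.4% with columns 4 and 6 and 35.4% with quantile-matched shares. Their recovery in RPE1 set 2, 77.0%, was 83.6% with 50 kb windows, 69.0 and 84.4% with running means of 3 and 9 windows, 72.8 and 79.1% at a prominence of 5 and 12 points, 71.4 and 82.4% within 60 and 200 kb, 72.0% with columns 4 and 6 and 74.4% after thinning, and stayed above the recovery in HCT116 in each. DESeq2 called 416 windows higher and 374 lower in HCT116, against 16988 and 9494 by edgeR, and columns 4 and 6 gave 4811 lower. Individual peaks were less stable than counts: within 100 kb, 9 of 160 HCT116-only, 86 of 575 RPE1-only and 89 of 534 shared peaks kept their class in all 14 settings compared, and with columns 4 and 6 alone 45 and 161 of the peaks found in 1 line did. Quantile matching and leaving out chromosomes 8, 10, 16 and 17 were chosen after seeing the data. Without a RPE1 set edgeR has no residual degrees of freedom, so that test was not run. No paired analysis was possible because HCT116 has 1 set and the columns carry no replicate number that pairs it with RPE1. Depth limits single windows, with a median of 51 library A reads in HCT116.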
